A study of Mus musculus with 2 samples.

Results

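The genes described here are the receptors for acetylcholine, serotonin, dopamine, adrenaline and noradrenaline, adenosine and extracellular nucleotides in mouse neural stem cells (NSCs). They were chosen by gene symbol alone, from the symbols that name nicotinic and muscarinic acetylcholine receptors, serotonin, dopamine, adrenergic and adenosine receptors, and P2X and P2Y receptors, and they number 67 of the 23257 known genes of the deposited table. The pattern of symbols leaves out Adra2c and the histamine receptors, which are given separately further on. The cells were purchased primary NSCs from the cerebral cortex of CD-1 mouse embryos at E14.5, kept in monolayer culture in the presence of the growth factors EGF and FGF (20 ng/ml of either), and their poly(A)+ RNA was sequenced. The series holds 1 condition, with 2 libraries named NSC replicates 1 and 2. No comparison between conditions is therefore possible and no test is given. The study calls its replicates of these cells biological, but neither it nor the labels say how the cultures were separated, so the SDs cover the spread between these libraries only.

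These receptors fall into a pair of kinds. Nicotinic subunits, the serotonin receptor subunits of the Htr3 genes and the P2X subunits build cation channels that open when the transmitter binds, the first groups as pentamers and P2X as trimers. All the others are G protein-coupled receptors: those coupled to Gs stimulate adenylyl cyclase, those coupled to Gi inhibit it, and those coupled to Gq activate phospholipase C-beta and release calcium from stores. In the developing cortex ATP and adenosine are known as signals between progenitor cells as well as between neurons, and acetylcholine, serotonin and dopamine reach the tissue from other cells.

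The cells carried the RNA of neural stem cells. All 8 NSC markers were above an FPKM (mapped fragments scaled by transcript length and library size) of 1 in both libraries, and their median was 100.6, while all 8 microglia markers and all 5 endothelial markers were at 0.1, the lowest value of the table. Skeletal muscle markers, checked because muscle uses several nicotinic subunits, were at 0.1 in both libraries for 5 of 6 genes, and the highest mean was 0.121. Of 8 neuron markers 4 exceeded FPKM 1 in both libraries (summed FPKM 23.7 and 24.1), near the share of all known genes (47.7%). Of 6 astrocyte markers 5 did (47.9 and 50.1), and of 4 markers of oligodendrocyte precursors 3 did (13.9 and 14.5). At 0.1 in both libraries were 40.3% of all known genes. The part of neurons, astrocytes or oligodendrocyte precursors in any receptor value was not tested. In such bulk RNA, few cells with much of a transcript and many cells with little of it cannot be told apart. By the study's supplementary methods values under 0.1 were set to 0.1, so 0.1 does not separate a low level from none, and with no read counts the depth behind a value is unknown.

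Few of the receptor genes were expressed above FPKM 1. Of the 67 genes, 10 (14.9%) exceeded FPKM 1 in each library, beside 47.7% of all known genes, and 1 exceeded FPKM 10, beside 24.5%. At the lowest value in both libraries were 40 receptor genes (59.7%), compared with 40.3% of all known genes. The median FPKM was 0.1 for the receptor genes and 0.695 for all known genes. The receptors for glutamate, GABA and glycine, the nearest comparable group, had 18 of 52 genes (34.6%) above FPKM 1 in both libraries and 24 (46.2%) at 0.1. The sizes of these lists differ and their genes are not replicates, so the difference was described and not tested.

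The expressed receptors were led by the purinergic families. Adora1, the adenosine receptor that couples to Gi, was highest, followed by the ATP-gated channel gene P2rx7, the beta-adrenergic receptor gene Adrb1, the ATP-gated channel gene P2rx4, the nicotinic subunit gene Chrna4 and the ADP receptor gene P2ry1. At lower levels came the alpha-adrenergic receptor gene Adra1a, the muscarinic receptor gene Chrm3, the nicotinic subunit gene Chrna7 and the adenosine receptor gene Adora2b. Summed over the libraries' means, the adenosine, P2X and P2Y receptors held 24.5%, 25.7% and 10.4% of the FPKM of all 67 genes, a sum of 59.5 in which genes at 0.1 count as 0.1. Adora1 alone held 21.8% of it, and the 11 genes with a mean above FPKM 1 held 82.6%. All 67 together made up 0.0165% of the summed FPKM of known genes.

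**Figure D1:**
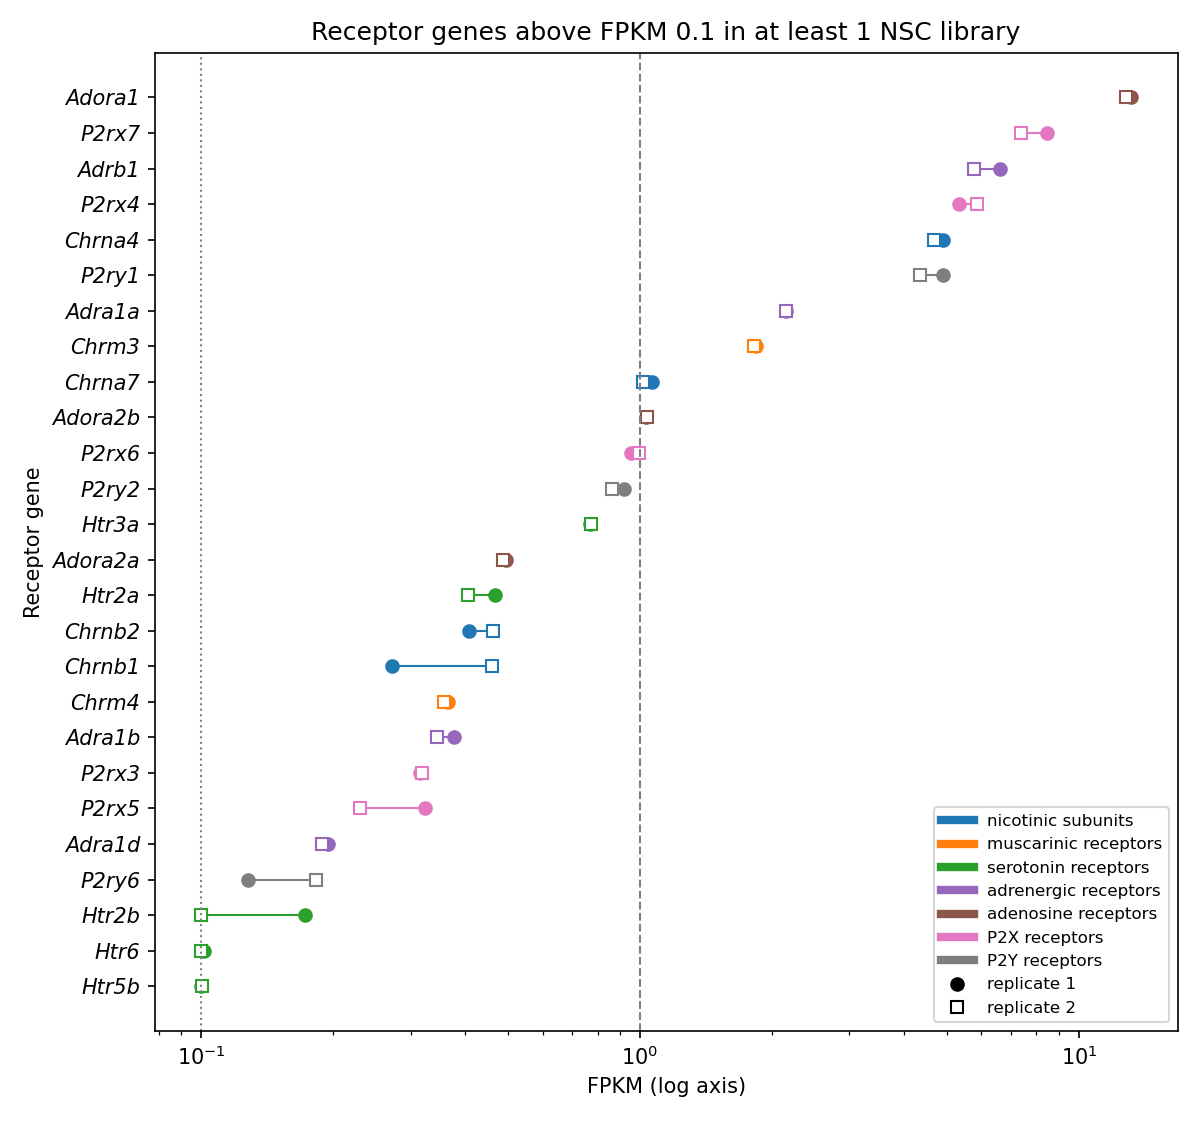
FPKM (x axis, log scale) of 26 of the 27 receptor genes above 0.1 in at least 1 library, ordered by their mean, with filled circles for replicate 1 and open squares for replicate 2, coloured by family. The dashed line marks FPKM 1 and the dotted line 0.1, the lowest value of the table; Adora1 stands alone above FPKM 10 and the libraries lie close together for most genes.

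Ordered by mean, 27 receptor genes were above 0.1 in at least 1 library, and the libraries of neighbouring genes overlapped in 13 of the 26 steps of this order. Adora1 and P2rx7 did not overlap with each other or with the next gene: the value of Adora1 was 1.64 times that of P2rx7 on the mean, and between 1.52 and 1.78 times over the pairings of libraries. Adrb1 and P2rx4 overlapped, as did Chrna4 and P2ry1, so their order is not resolved. The same holds for Chrna7 and Adora2b, at values just above FPKM 1.

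The libraries differed little in their receptor genes. For the 11 genes with a mean above FPKM 1, the median absolute log2 ratio of replicate 2 to replicate 1 was 0.08, compared with 0.09 over the 6315 known genes within the same range of levels. The lowest ratio among these 11 was -0.20, that of Adrb1, which was lower in replicate 2. For the 13 genes above 0.1 in both libraries with a mean of at most FPKM 1 the median was 0.09 as well, with a wider range of -0.50 for P2rx5 to 0.76 for Chrnb1. All 24 receptor genes above 0.1 in both libraries differed by less than 2-fold. The 40 genes at 0.1 in both are equal only because of the lowest value, and for the 3 at 0.1 in 1 library the ratio is unknown.

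**Figure D2:**
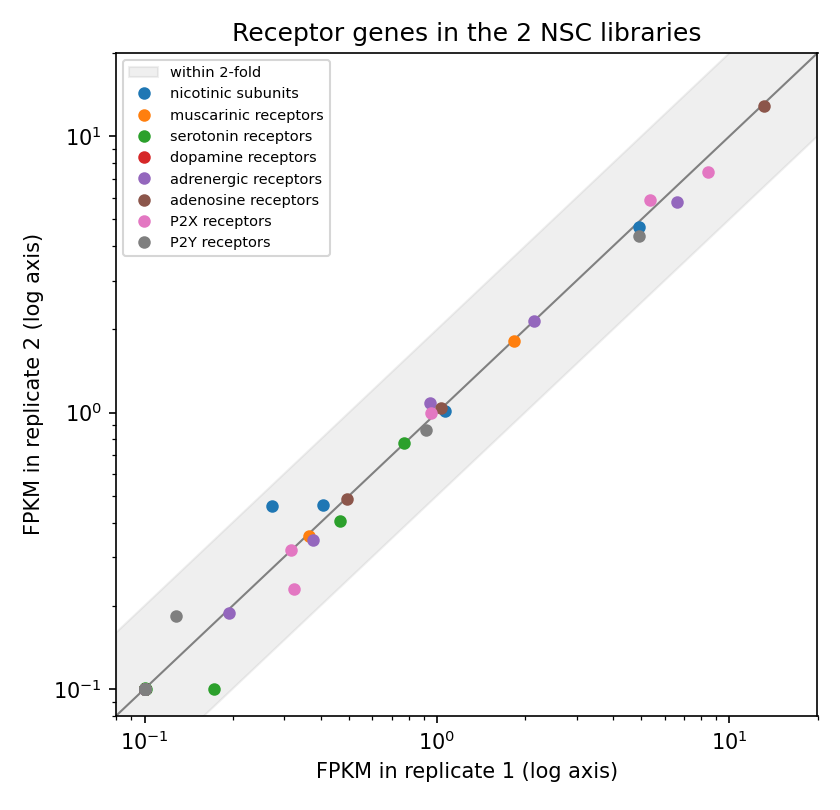
FPKM of the 67 receptor genes in replicate 1 (x axis, log scale) and replicate 2 (y axis, log scale), coloured by family, with the line of equal values and a grey band for differences within 2-fold. All genes lie within the band, and the 40 genes at 0.1 in both libraries share 1 point at the lower left, where the lowest value fixes their position.

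The promoters of the receptor genes with a mean above FPKM 1 and of those at 0.1 differed in their median content of CG dinucleotides, with exceptions on both sides. In mammals many promoters lie in CpG islands, stretches rich in CG. RefSeq promoters on GRCm38.p6, from 250 bases before to 50 after the start, were found for 50 of the 67 genes (74.6%), too few for a comparison over the whole set. The coverage was higher in 2 subsets, with 9 of the 11 genes with a mean above FPKM 1 and 32 of the 40 at 0.1. The median number of CG, a motif that reads the same on both strands, was 26 in the former (8 to 35) and 7 in the latter (1 to 46), taking the promoter with the most CG where a gene had several. Over all known genes with a promoter the medians were 23 above FPKM 1 and 3 at 0.1, so the receptor genes showed the same order as known genes at large, and 94.6% of the 32851 promoters of the table hold at least 1 CG. For the genes between these levels, 9 of 16 (56.2%) had a promoter, and the comparison is void for them. The 4 promoters that follow, with each CG in capitals, are from genes for which a promoter was found. Adora1 was the most highly expressed receptor gene, and P2rx7 had the fewest CG of the 9 genes with a mean above FPKM 1. Among the 32 genes at 0.1, Htr7 had the most CG and Adora3 the fewest, tied with Chrna10 and Chrne.
Adora1, chr1:134235408-134235707, minus strand: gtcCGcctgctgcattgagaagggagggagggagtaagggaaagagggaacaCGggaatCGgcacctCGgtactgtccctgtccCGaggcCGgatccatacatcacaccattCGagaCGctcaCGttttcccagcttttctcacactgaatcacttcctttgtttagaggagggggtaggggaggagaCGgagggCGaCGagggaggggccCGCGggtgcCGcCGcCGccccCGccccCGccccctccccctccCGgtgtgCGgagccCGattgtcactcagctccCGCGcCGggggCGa
P2rx7, chr5:122643677-122643976, plus strand: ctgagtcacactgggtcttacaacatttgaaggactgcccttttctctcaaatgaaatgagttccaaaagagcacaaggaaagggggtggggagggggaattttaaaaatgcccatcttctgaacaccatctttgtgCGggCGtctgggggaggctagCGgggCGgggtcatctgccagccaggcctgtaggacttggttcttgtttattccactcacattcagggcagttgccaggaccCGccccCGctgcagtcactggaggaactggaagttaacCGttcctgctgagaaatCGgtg
Htr7, chr19:36057311-36057610, minus strand: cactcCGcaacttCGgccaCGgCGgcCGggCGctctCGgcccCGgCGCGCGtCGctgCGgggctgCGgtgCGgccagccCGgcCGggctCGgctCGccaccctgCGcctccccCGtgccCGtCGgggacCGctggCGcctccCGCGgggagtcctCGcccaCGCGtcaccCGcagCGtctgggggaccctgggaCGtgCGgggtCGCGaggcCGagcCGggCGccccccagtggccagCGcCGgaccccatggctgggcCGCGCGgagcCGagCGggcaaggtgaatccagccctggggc
Adora3, chr3:105904171-105904470, plus strand: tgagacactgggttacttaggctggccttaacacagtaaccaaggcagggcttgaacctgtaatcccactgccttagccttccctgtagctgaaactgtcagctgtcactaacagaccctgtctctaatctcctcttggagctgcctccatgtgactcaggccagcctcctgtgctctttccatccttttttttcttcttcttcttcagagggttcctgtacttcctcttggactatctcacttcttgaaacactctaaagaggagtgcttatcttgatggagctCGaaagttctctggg

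The promoter of Adora1 holds 26 CG, and 83.1% of all promoters in the table hold fewer. That of P2rx7 holds 8 although the gene was the second highest receptor, and 51.4% of promoters hold fewer. Htr7, a Gs-coupled serotonin receptor gene at 0.1 in both libraries, has 46 CG, more than 98.4% of promoters. Adora3, the other Gi-coupled adenosine receptor gene, also at 0.1, has a single CG. A count of CG is a description of the sequence and not a measure of methylation or of binding.

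**Figure D3:**
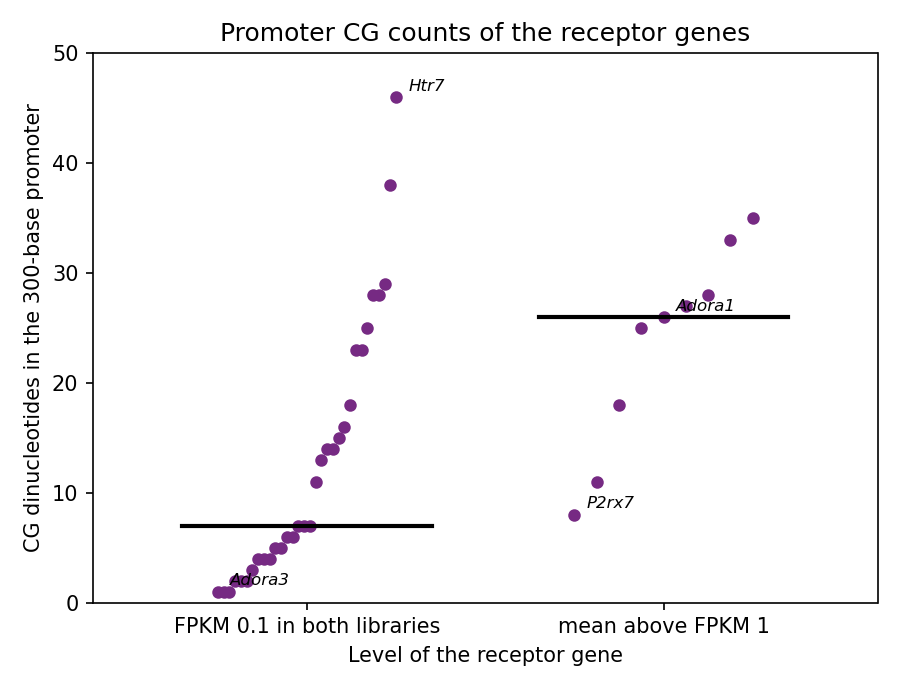
Number of CG dinucleotides in the 300-base promoter (y axis) of the 32 receptor genes at FPKM 0.1 in both libraries and the 9 with a mean above FPKM 1 for which the table has a promoter, 1 point per gene, with a bar at the median (7 and 26). The 2 sets overlap, with Htr7 the highest point of all and P2rx7 the lowest of the 9 genes with a mean above FPKM 1.

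Of the adenosine receptors 2 of 4 were above FPKM 1 in both libraries, near the 47.7% of all known genes, and at FPKM 5 only Adora1 remained above the threshold. Adora1 had an FPKM of 13.1 in replicate 1 and 12.8 in replicate 2 (mean 12.99 ± 0.223, SD, n = 2 libraries), above 79.2% of known genes. On GRCm38 the gene spans 134199223 to 134235431 of chromosome 1 (minus strand), and its exons share 1162 bases with those of Mybph on the other strand, which was at 0.1 in both libraries. Adora2b, whose receptor couples to Gs and needs high adenosine to respond, had 1.03 and 1.04 (1.03 ± 0.00442), so Adora1 was 12.6 times as high. Adora2a, the Gs-coupled receptor best known from striatal neurons, was below FPKM 1 with 0.494 and 0.486. Adora3 was at 0.1, and part of its sequence, 779 exon bases, is shared with Tmigd3 on the same strand.

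P2X receptors had 2 genes far above the others, and these are neighbours in the genome. P2rx7, the channel of immune cells and glia that opens only at high ATP, had 8.45 and 7.39 (7.92 ± 0.749), and P2rx4, a calcium-permeable channel sensitive to low ATP, had 5.33 and 5.86 (5.59 ± 0.372). On chromosome 5 they lie on the plus strand from 122643911 to 122729738 with 16111 bases between them. P2rx6, whose protein forms channels poorly on its own, had 0.954 and 0.997. Its exons share 554 bases with those of Slc7a4 on the other strand, at 0.960 and 1.15, and in libraries that do not mark strand the reads of the shared part cannot be told apart. P2rx3, the channel of sensory neurons, had 0.316 and 0.318, with 51 exon bases shared with the opposite strand of Ssrp1, a gene at a mean of 74.6. P2rx5 had 0.324 and 0.230, and P2rx1 and P2rx2 were at 0.1.

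Among P2Y receptors the Gq-coupled ones held all values above 0.1. P2ry1, the receptor for ADP, had 4.91 and 4.34 (4.63 ± 0.402), 5.20 times the mean of P2ry2, the receptor for ATP and UTP, which had 0.918 and 0.863. P2ry6, the UDP receptor, had 0.128 and 0.183, and P2ry4 was at 0.1. P2ry12, P2ry13 and P2ry14, Gi-coupled receptors that lie side by side on chromosome 3 and of which P2ry12 marks microglia, were all at 0.1, as was P2ry10. P2ry1 spans 61002795 to 61008982 of chromosome 3 (plus strand), and 992 of its exon bases lie opposite the antisense gene Gm37035, which has no value here. The defining microglia markers Cx3cr1, Tmem119 and Csf1r were at 0.1 in the same libraries, and P2rx4 and P2rx7, which microglia also express, were not. Which cells the P2rx4 and P2rx7 RNA came from was not tested.

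Among the serotonin, dopamine and adrenergic receptors only adrenergic ones exceeded FPKM 1. Adrb1, the Gs-coupled receptor that predominates in the heart and is also found in the cortex, had 6.61 and 5.76 (6.19 ± 0.600) and lies on chromosome 19 from 56722199 to 56733113 (plus strand). Adra1a, a Gq-coupled receptor, had 2.15 in each library (2.15 ± 0.00134), whereas Adra1b had 0.376 and 0.345 and Adra1d 0.194 and 0.188. The Gi-coupled receptor genes Adra2a and Adra2b and the adipose tissue receptor gene Adrb3 were at 0.1, and so was Adra2c, the alpha receptor gene outside the pattern of symbols.

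Serotonin receptors were below FPKM 1 in all 14 cases and dopamine receptors were at 0.1 in all 5. Of all known genes 47.7% were above FPKM 1 in both libraries and 40.3% were at 0.1. With so few genes in these families the difference was not tested. The highest serotonin receptor was Htr3a, the subunit every channel of this kind requires, with 0.770 and 0.774. Htr3b, which lies next to it on chromosome 9 and cannot form a channel alone, was at 0.1. Htr2a, a Gq-coupled receptor, had 0.467 and 0.406. Htr2b had 0.172 in replicate 1 and 0.1 in replicate 2, and 252 of its exon bases lie on the other strand of Psmd1, whose mean was 65.7. Htr6 had 0.101 in replicate 1 and Htr5b 0.1004 in replicate 2, each with 0.1 in the other library, so they cannot be told from the lowest value. At 0.1 in both libraries were Htr1a, Htr1b, Htr1d, Htr1f, Htr2c, Htr4, Htr5a and Htr7, and Drd1a, Drd2, Drd3, Drd4 and Drd5. Of the histamine receptor genes outside the pattern of symbols Hrh1 had 4.58 and 5.28, a level between those of P2rx4 and Chrna4 on the mean, while Hrh2, Hrh3 and Hrh4 were at 0.1, as was the trace amine receptor gene Taar1.

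Among the 16 nicotinic subunits only Chrna4 and Chrna7 were above FPKM 1 (all known genes 47.7%), with no beta subunit at a comparable level. Chrna4, which with beta subunits builds the main high-affinity nicotinic receptor of the brain, had 4.89 and 4.68 (4.79 ± 0.147) and lies on chromosome 2 from 181018380 to 181043546 (minus strand). Chrnb2, its usual partner, had 0.407 and 0.462, so Chrna4 was 11.01 times as high, and Chrnb4, the other known partner, was at 0.1. The exons of Chrnb2 share 1365 bases with those of Adar on the other strand, whose mean was 10.3, so part of the reads behind the Chrnb2 value may not be its own. Chrna7, whose subunits form a calcium-permeable channel without a partner, had 1.07 and 1.01 (1.04 ± 0.0384), at the threshold.
The neighbouring genes Chrna3, Chrna5 and Chrnb4 on chromosome 9, which build the receptor of autonomic ganglia, were at 0.1 in both libraries. So were Chrna6 and Chrnb3, neighbours on chromosome 8 and known from dopamine neurons, Chrna2, and Chrna9 and Chrna10 of the inner ear. Of the subunits of the receptor of skeletal muscle, Chrna1, Chrnd, Chrne and Chrng were at 0.1 and Chrnb1 had 0.273 and 0.460.

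Muscarinic receptors had 1 of 5 genes above FPKM 1, beside 47.7% of all known genes, a difference not tested with so few genes. Chrm3, a Gq-coupled receptor, had 1.84 and 1.82 (1.83 ± 0.0127), and Chrm4, a Gi-coupled one, had 0.366 and 0.357. Chrm1, the main Gq-coupled muscarinic receptor of cortical neurons, Chrm2 and Chrm5 were at 0.1. The lowest value was therefore shared by Chrm1 and Chrm5, which use the same G protein as Chrm3.

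**Figure D4:**
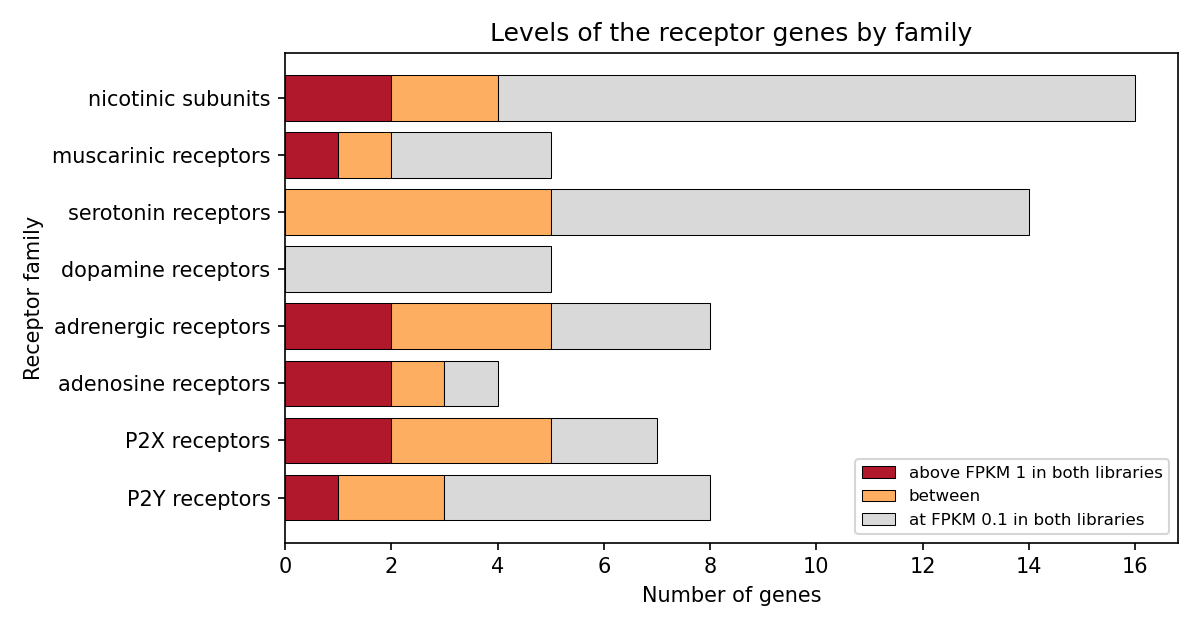
Number of receptor genes (x axis) in each of the 8 families (y axis), split into those above FPKM 1 in both libraries, those between, and those at FPKM 0.1 in both. Dopamine receptors are all at 0.1, serotonin receptors have none above FPKM 1, and adenosine receptors have 2 of 4 above it. Of all known genes 47.7% are above FPKM 1 in both libraries and 40.3% at 0.1.

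By kind, channels and G protein-coupled receptors had similar shares of expressed genes. Of the 25 channel subunits 4 (16.0%) were above FPKM 1 in both libraries and 15 (60.0%) at 0.1. Of the 42 G protein-coupled receptors 6 (14.3%) were above FPKM 1 and 25 (59.5%) at 0.1. For all known genes these shares were 47.7% and 40.3%. By coupling, a grouping added after the values were seen, 15 of the 18 Gi-coupled receptors (83.3%) were at 0.1 in both libraries. Of Gs-coupled ones 5 of 10 (50%) were, and of Gq-coupled ones 4 of 13 (30.8%), beside the 40.3% of all known genes. P2ry10 was placed in none of these groups. Htr5b (Gi) and Htr6 (Gs) were counted as above 0.1 but cannot be told from it, and Htr2b (Gq) was at 0.1 in replicate 2. The only Gi-coupled receptor gene above FPKM 1 was Adora1, which was also the highest of all. Between receptor genes less than 100 kb apart, 11 pairs in all, both genes were at 0.1 in 8, and Htr3a with Htr3b was mixed. Both were above 0.1 in 2 pairs, P2rx7 with P2rx4 and P2ry6 with P2ry2. The pairs are not independent, since Chrna3, Chrna5 and Chrnb4, and likewise P2ry12, P2ry13 and P2ry14, each enter several of the 8. Of all receptor genes 59.7% were at 0.1, and whether neighbours share their level was not tested.

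The machinery that receives the signals of these receptors had higher medians than the receptors, whose median was 0.1, the lowest value of the table. The median of all known genes was 0.695. Of 13 G protein alpha subunit genes 10 were above FPKM 1 in both libraries, beside 47.7% of all known genes, with a median of 23.8. With so few genes in each list these shares were not tested. Gnas, which encodes Gs, had 654 ± 17.8 (SD, n = 2), and Gnai2 and Gnai3, which encode forms of Gi, 180 ± 9.88 and 64.0 ± 3.10, while Gna15, of blood cells, was at 0.1. The main Gq genes, named after their values were seen, were Gna11 with 24.8 ± 0.452 and Gnaq with 23.8 ± 1.41. Of 13 adenylyl cyclase and phospholipase C-beta genes (median 1.29) 7 were above FPKM 1, near the 47.7% of all known genes. They were led by Plcb3 with 17.4 ± 0.245, Adcy6 with 10.2 ± 0.355 and Adcy1 with 2.98 ± 0.301, and Adcy4 and Plcb2 were at 0.1. Of 7 genes for receptor kinases and arrestins, which switch off activated receptors (median 11.04), 6 were above FPKM 1, beside 47.7% of all known genes. Adrbk1 had 17.8 ± 0.217, Adrbk2 15.8 ± 0.878 and Grk6 15.4 ± 0.704, and Grk4 was lowest at 0.600 ± 0.114.

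Of the genes that make, release, carry or remove the transmitters, smaller shares than the 47.7% of all known genes were above FPKM 1 for acetylcholine and monoamines. For nucleotides and adenosine the share was near it. For acetylcholine, Chat, which makes it, and the transporter genes Slc18a3 and Slc5a7 were at 0.1 in both libraries, and of 7 genes only the esterase gene Bche was above FPKM 1 (4.11 ± 0.210), with Ache at 0.498 ± 0.0365. For monoamines 4 of 20 (known genes 47.7%) were above FPKM 1. Among them were Qdpr, which regenerates the cofactor tetrahydrobiopterin, with 56.0 ± 0.405, the degrading enzyme gene Maoa with 29.8 ± 3.53, and the uptake gene Slc29a4 with 7.67 ± 0.0763. The synthesis genes Th, Dbh, Pnmt, Tph1, Tph2 and Hdc were at 0.1, and Ddc had 0.211 ± 0.0384.
For nucleotides and adenosine 8 of 19 were above FPKM 1, near the share of all known genes (47.7%). Adk, the kinase that removes adenosine inside cells, had 27.99 and 32.01 in the libraries (SD 2.84), the adenosine transporter gene Slc29a1 21.3 ± 1.29, and Panx1, a channel that releases ATP, 11.8 ± 1.15. The surface enzymes that turn ATP into adenosine stepwise had lower values, Entpd1 with 2.33 ± 0.152 and Nt5e with 2.18 ± 0.245, while Alpl, a phosphatase that also does so, had 8.96 ± 1.23. Entpd2, known as the enzyme of adult neural progenitors, was at 0.1, as was the vesicular nucleotide transporter gene Slc17a9.
Of 8 genes for chaperones and modulators of nicotinic receptors 5 were above FPKM 1, beside 47.7% of all known genes. With so few genes this difference was not tested. Tmem35, a chaperone needed for receptors of Chrna7, had 57.1 ± 3.89, whereas Lypd1, whose protein binds the receptors at the surface, had 4.55 ± 0.240 and the chaperone gene Ric3 3.88 ± 0.0759, and Lypd6b was at 0.1. The level of Tmem35 was thus above that of every nicotinic subunit in both libraries.

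**Figure D5:**
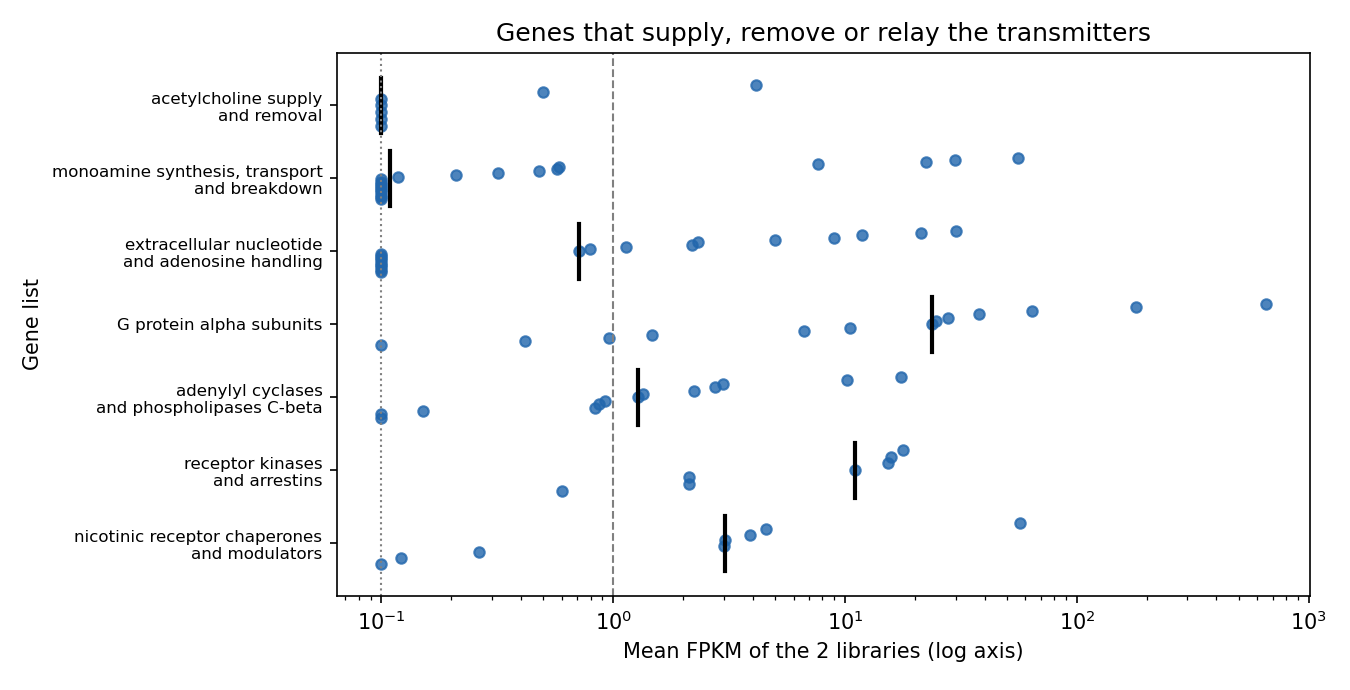
Mean FPKM of the 2 libraries (x axis, log scale) for the genes of 7 lists (y axis), 1 point per gene, with a bar at the list's median. Acetylcholine and monoamine genes gather at 0.1 with medians of 0.1 and 0.109, and G protein alpha subunits have the highest median, 23.8.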

How the data were processed

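Poly(A)+ RNA of 2 NSC libraries was sequenced paired-end without strand information. TopHat (2.0.11) with Bowtie2 (2.2.2) placed the reads on mm10, and Cufflinks (1.3.0), correcting for multi-reads and bias, estimated levels over a joint annotation of known genes and lncRNAs, per the study's methods and the submitters' processing notes. The authors deposited FPKM for 23257 known genes and 8714 lncRNAs; no receptor gene is in the lncRNA table. Depth and counting error are unknown without counts.

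FPKM were used as deposited, without a pseudocount, as library values or as mean ± SD (n = 2), in pandas 2.3.3 (NumPy 2.4.6, Python 3.11.15; plots in matplotlib 3.10.9), and the functions were checked on simulated data. Receptors were counted above FPKM 1 and 10 and at 0.1. Gene positions, which share the mm10 assembly (GRCm38), came from GENCODE M21. Receptors above 0.1 are given by value, except 1 that is not reported here; from each list the highest and lowest genes, likewise with 1 exception. The receptors, the 8 functional and 8 marker lists were chosen with earlier results of these data known; G protein couplings, neighbours, promoters and the glutamate, GABA and glycine receptors were added after the values were seen. Alternatives were thresholds of 0.1, 0.5 and 5, the mean of the libraries, either library alone, equal library sums, pseudocounts of 0.1 and 1, a low-value filter and Adra2c added.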

Additional observations from a re-analysis of the deposited data

How the results depend on the processing

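No paired analysis was possible because both libraries belong to a single group. At thresholds of FPKM 0.1 and 5 in place of 1, the receptor genes passing in both libraries numbered 24 and 4 (10 at FPKM 1), the channel subunits 10 and 2 (4), the G protein-coupled receptors 14 and 2 (6) and the known genes 57.8% and 35.0% (47.7%), and 24 genes of the functional lists passed at FPKM 5 (42 at FPKM 1). At FPKM 0.5 51.0% of known genes passed, and by the mean of the libraries 48.1%. With either library left out, 48.0% to 48.2% of known genes were above FPKM 1. Without the genes at 0.1 the median of the receptor genes was 0.772. These shifts follow from moving the threshold, the mean or the filter. In libraries rescaled to equal sums Chrna7 fell below FPKM 1 in replicate 2, which left 1 nicotinic subunit above it. Under the same rescaling the means of the 27 receptor genes above 0.1 in at least 1 library moved by less than their SD; leaving out a library cannot move a mean of 2 by more. Rescaling also raised the median absolute log2 ratio of the 11 receptor genes with a mean above FPKM 1 from 0.08 to 0.12. Adding Adra2c or a pseudocount of 0.1 or 1 left the counts and medians they were run on within 1.5 times or 1 SD, as did the mean over a gene's promoters, an alternative chosen after seeing the data. No known gene symbol has several rows, so a choice among them did not arise. Depth limits what 0.1 shows.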
